A study of Mus musculus with 12 samples.

Results

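The clustered protocadherins are neuronal cell adhesion genes that lie in 3 neighbouring arrays of similar genes, the α, β and γ clusters, on mouse chromosome 18. Every probe whose annotated gene symbol begins with *Pcdha*, *Pcdhg* or, followed by a digit, *Pcdhb* was taken from the table of signals before normalization. This gave 67 of 45281 probes and 54 of 19057 named genes, with 19 probes in the α cluster, 25 in the β cluster and 23 in the γ cluster. The rule used symbols alone and no signal, but it was chosen with earlier results of these data known.

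The arrays measured hippocampal RNA of 12 male C57BL/6J mice, given as 12 weeks old, with 1 MouseWG-6 v2.0 array per mouse. The 6 ethanol-exposed mice had dams that were offered ethanol to drink between 0.5 and 8.5 dpc (days post-coitum), and the 6 control mice were not exposed. All 12 were inbred animals with no transgene named. Each of the 2 BeadChips held 3 mice of each group, and the litter of each mouse is not given in the sources used here, so p-values measure only the spread between these mice.

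Protocadherins of these clusters are transmembrane proteins of the cadherin superfamily, and their extracellular domains bind the same isoform on a facing membrane. In the α and γ clusters each gene is a variable exon with a promoter of its own, spliced to constant exons that all genes of the cluster share, whereas β genes are single exons that use no constant exon. A neuron expresses a small and largely random set of these isoforms, and the combination lets its dendrites and axons tell self from non-self. The choice of promoter involves CTCF, cohesin and DNA methylation. The C-type genes at the ends of the α and γ clusters are chosen less randomly and are used by many neurons.

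The α cluster was the best measured of the 3 clusters. A probe counted as detected on an array when its detection p-value, which compares its signal with that of negative control beads, was under 0.05. Testing needed detection on 6 or more of the 12 arrays, which left 34 of the 67 probes (50.7%), against 42.6% of all probes on the array. The share was 14 of 19 α probes (73.7%), 11 of 25 β probes (44%) and 9 of 23 γ probes (39.1%). The 34 probes covered 28 genes, 9 in the α cluster, 11 in the β cluster and 8 in the γ cluster. All 12 arrays detected 19 of the 67 probes, and no array detected 22.

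The detected genes were scattered along each cluster. In the α cluster no array detected *Pcdha1*, *Pcdha3* or *Pcdha9*, and the genes from *Pcdha10* to *Pcdhac2* were each tested. In the β cluster *Pcdhb3*, *Pcdhb7*, *Pcdhb10*, *Pcdhb12*, *Pcdhb14*, *Pcdhb20* and *Pcdhb22* were detected on all arrays, with undetected genes between them. In the γ cluster *Pcdhga4* and *Pcdhgb4* were detected on all arrays among the variable genes. The mouse RefSeq table lists 58 genes in the clusters, and *Pcdha4*, *Pcdha8*, *Pcdhgb1* and *Pcdhga11* had no probe here. It lists *Pcdhgb8* as a transcribed pseudogene, whose probe was detected on 2 arrays. The 33 probes below the limit were not tested, and their signals say little about RNA level.

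**Figure D1:**
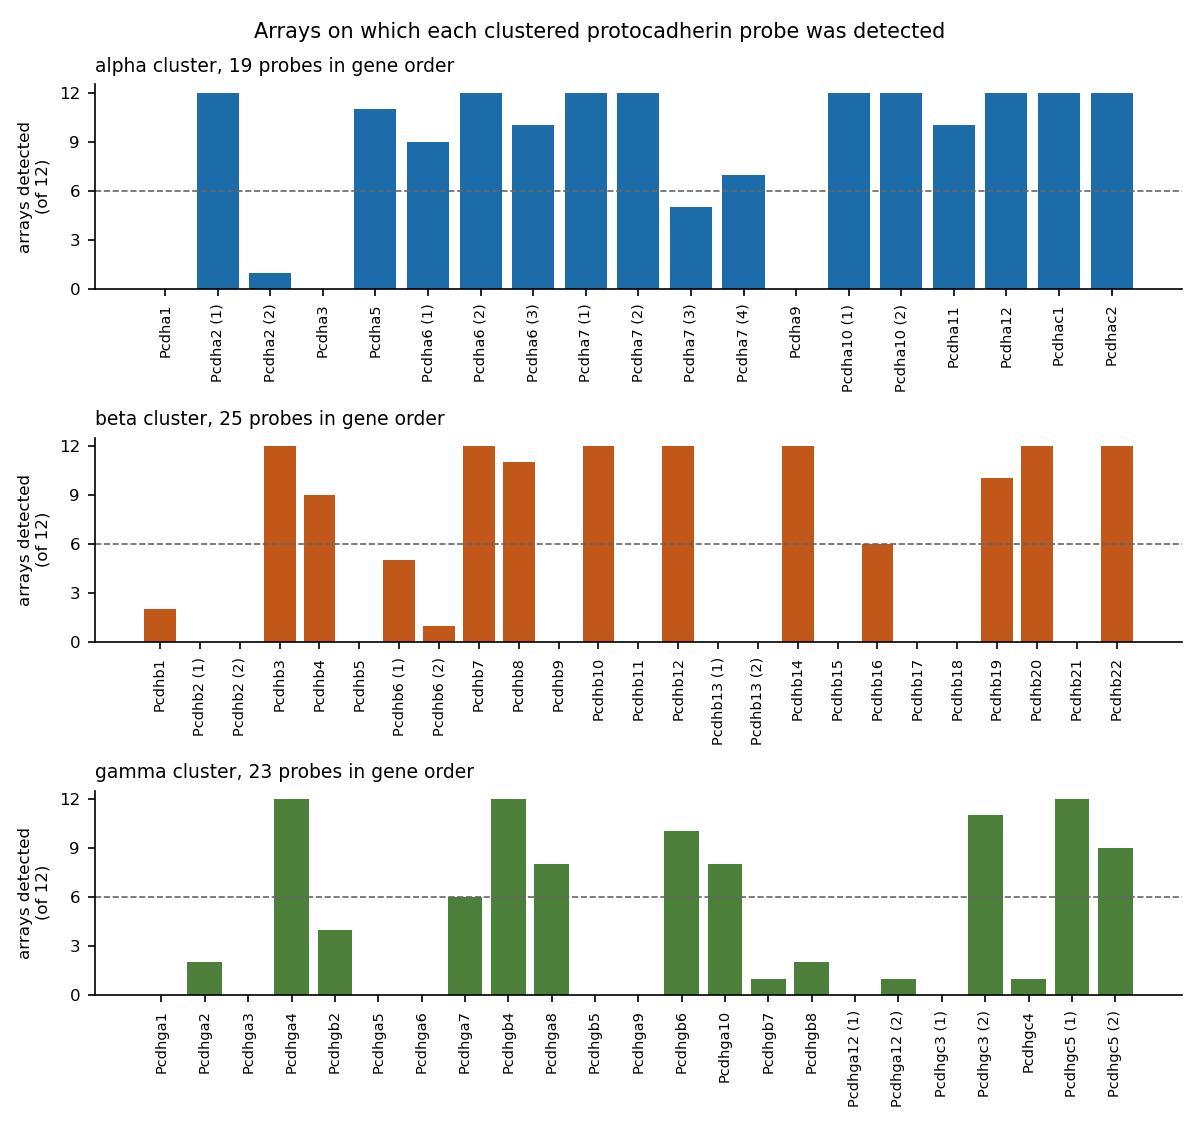
Number of the 12 arrays (y axis) on which each of the 67 probes was detected, with probes on the x axis in the order of the genes along each cluster and numbered where a gene has several. Bars that reach the dashed line, at 6 arrays, belong to the 34 tested probes: 14 α, 11 β and 9 γ.

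The annotation gives each of these probes to 1 gene, yet probes of the same gene were detected on different numbers of arrays. *Pcdha7* had 4 probes, of which ILMN_1250379 and ILMN_1215440 were detected on 12 arrays, ILMN_2689952 on 7 and ILMN_2677651 on 5. *Pcdha6* had ILMN_3076948 on 12 arrays, ILMN_3155884 on 10 and ILMN_2591294 on 9. *Pcdhgc3* had one probe on 11 arrays and one on none. Since the α and γ genes share their constant exons, a probe placed there would read every isoform of the cluster, and no source used here says where each probe lies. The values below are therefore given by probe, and signals of different probes were not ranked as RNA levels.

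No clustered protocadherin passed the test after adjustment. At an adjusted p under 0.05 limma called 0 of the 34 probes, against 0% of the 19288 probes tested, and the adjusted p-values of the 34 ran from 0.718 to 1.0. At an unadjusted p under 0.05, 2 probes were higher in ethanol-exposed mice, *Pcdhb3* and *Pcdhb19*, against 3.36% of all probes. None was lower, against 3.08% of all probes. The count of 2 changed when single mice were left out. It was 1 without ethanol replicate 5, 6 without ethanol replicate 6, 5 without ethanol replicate 3 and 4 without control replicate 1, 2 or 5. Without ethanol replicate 6 the counts over all probes rose too, from 648 higher and 594 lower to 848 and 789. Over the 12 comparisons without 1 mouse they ran from 536 to 848 higher and from 519 to 789 lower. The smallest count of higher probes, 536, was without control replicate 1. Shares over all probes for each of these counts of members are not given here. No member probe was higher in every ethanol-exposed mouse than in every control mouse, which 0.124% of all probes were. A difference of positive sign, higher in ethanol-exposed mice, was found at 24 of 34 probes (70.6%), against 51.6% of all probes.

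**Figure D2:**
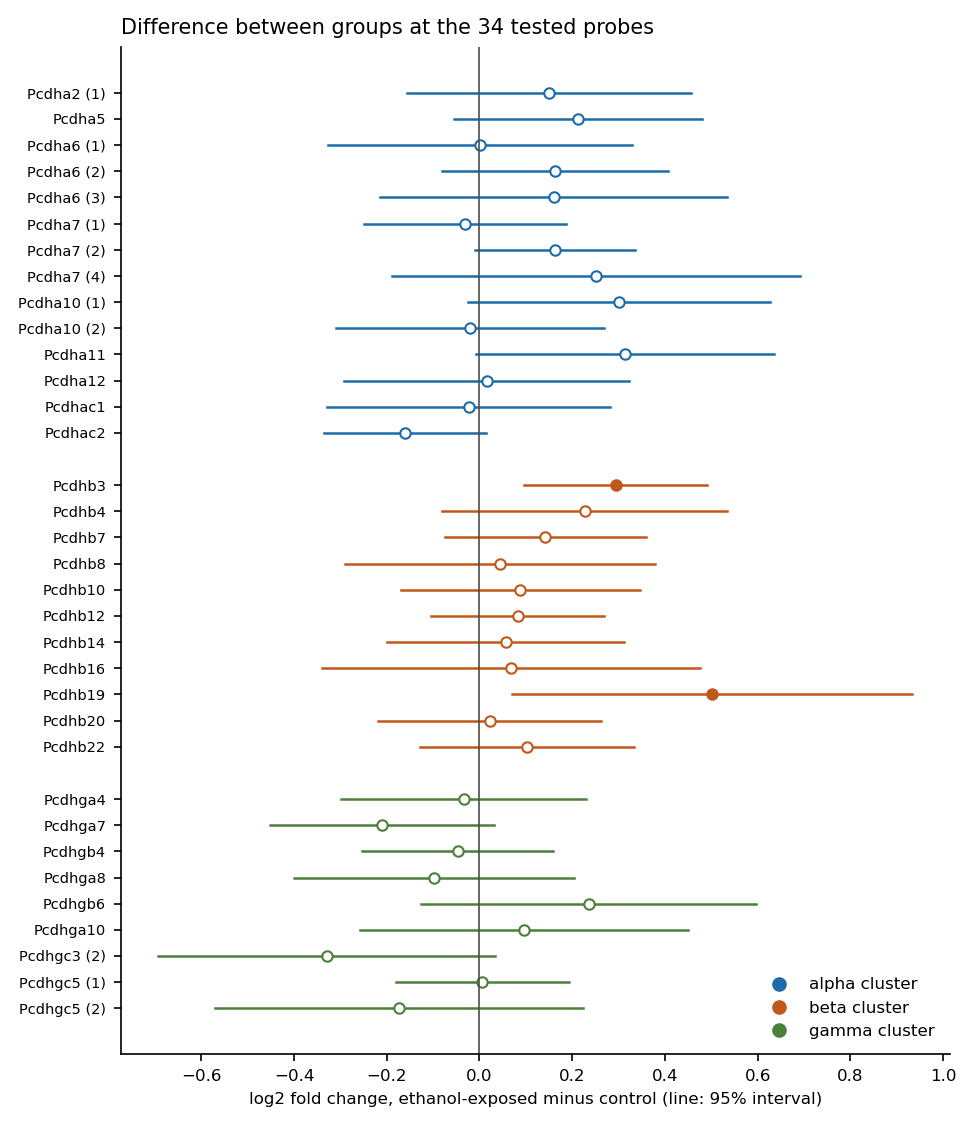
Log2 fold change, ethanol-exposed minus control (x axis), with its 95% interval for the 34 tested probes (y axis, in gene order by cluster, numbered as in the plot of arrays detected). Filled points are *Pcdhb3* and *Pcdhb19*, at an unadjusted p under 0.05. All 11 β points lie to the right of 0, and 10 of 14 α points and 3 of 9 γ points do.

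The 3 clusters differed in their counts of signs. The median log2 fold change was 0.09 over the 11 β probes, 0.15 over the 14 α probes and −0.05 over the 9 γ probes, beside 0.0047 over all probes tested. The sign was positive at 11 of 11 β probes, 10 of 14 α probes and 3 of 9 γ probes. Scaling the arrays on their medians instead of by quantiles lowered these to 8, 8 and 2, with 36.6% of all probes then positive and a median of −0.04 over all probes. Most of these probes were dim, as 21 of the 34 lay in the dimmest 25% of tested probes by mean signal, and 15 of those 21 had a positive sign against 49.9% of all probes that dim. Neighbouring probes share mice and may share transcripts, so no test was made of these counts.

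*Pcdhb3*, a β isoform, had the smallest p-value of the family. Its normalized log2 signal at ILMN_1253649 ran from 7.93 to 8.31 (median 8.19) in the 6 exposed mice and from 7.70 to 8.17 (median 7.83) in the 6 control mice. The control median was exceeded by all 6 ethanol-exposed mice, and the groups overlapped, with control replicate 5 above ethanol replicates 4 and 5. The log2 fold change was 0.29 ± 0.093 (standard error), with a limma unadjusted p = 0.00664, an adjusted p = 0.718 and a two-sided exact permutation p = 0.0130. The exact test can give 0.00216 at the smallest here, and with the arrays scaled on their medians the limma unadjusted p = 0.0564.

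*Pcdhb19*, another β isoform, had the largest fold change of the family and a low signal. At ILMN_2465874 the signal ran from 5.56 to 6.31 (median 5.89) in exposed mice and from 4.53 to 5.89 (median 5.64) in control mice. The probe was detected in 6 of 6 ethanol-exposed mice and 4 of 6 control mice, and 5 of the 6 ethanol-exposed mice exceeded the control median. This gave a log2 fold change of 0.50 ± 0.20 (standard error), with a limma unadjusted p = 0.0260, an adjusted p = 0.731 and an exact permutation p = 0.0390. The lowest of all the values was that of control replicate 3, and without it the log2 fold change was 0.32 (limma unadjusted p = 0.0434). Leaving out ethanol replicate 2, ethanol replicate 5 or control replicate 2 gave an unadjusted p = 0.0553, 0.0614 or 0.0532.

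The other β probes had smaller differences of the same sign, from 0.02 at *Pcdhb20* to 0.23 at *Pcdhb4*, each with an interval that held 0. *Pcdhb7* was one of the brightest 3, with a signal from 7.34 to 7.85 (median 7.71) in exposed mice and from 7.29 to 7.72 (median 7.61) in control mice. Its log2 fold change was 0.14 (95% interval −0.07 to 0.36). At *Pcdhb22*, the last gene of the cluster, the signal ran from 7.20 to 7.61 (median 7.37) and from 6.99 to 7.57 (median 7.22), a log2 fold change of 0.10 (95% interval −0.13 to 0.33). At both probes 5 of 6 ethanol-exposed mice exceeded the control median and the groups overlapped over most of their range.

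In the α cluster the 2 brightest probes, both of *Pcdha7*, had values on different sides of 0, with intervals that overlapped. At ILMN_1250379 the signal ran from 11.81 to 12.18 (median 12.01) in exposed mice and from 11.74 to 12.04 (median 11.82) in control mice. The log2 fold change was 0.16 ± 0.081 (standard error), with a limma unadjusted p = 0.0618, an adjusted p = 0.759 and an exact permutation p = 0.0455, with 5 of 6 ethanol-exposed mice above the control median. At ILMN_1215440 the signal ran from 10.65 to 11.09 (median 10.90) and from 10.68 to 11.06 (median 10.93), with a log2 fold change of −0.03 (95% interval −0.25 to 0.19). The difference between the probes was not tested. The dim remaining tested probe, ILMN_2689952, had a log2 fold change of 0.25 (95% interval −0.19 to 0.69).

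*Pcdha6* and *Pcdha11*, variable α isoforms, also had positive differences within the spread between mice. At the bright *Pcdha6* probe, ILMN_3076948, the signal ran from 10.09 to 10.58 (median 10.19) in exposed mice and from 9.77 to 10.33 (median 10.12) in control mice, a log2 fold change of 0.16 (95% interval −0.08 to 0.41). *Pcdha11* ran from 5.33 to 6.19 (median 5.82) and from 5.28 to 5.83 (median 5.42). Its log2 fold change of 0.31 was the next largest in size after *Pcdhb19* and *Pcdhgc3* (limma unadjusted p = 0.0549, adjusted p = 0.759; exact permutation p = 0.0866). In both probes 5 of 6 ethanol-exposed mice exceeded the control median. The other α probes with a positive sign ran from 0.0014 at *Pcdha6* ILMN_2591294 to 0.30 at *Pcdha10* ILMN_2757551, while *Pcdha10* ILMN_2886128 was at −0.02.

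Of the 5 tested probes of C-type genes, which lie at the ends of the α and γ clusters, 4 had a negative sign. Of all probes tested 51.6% had a positive sign. On chip 1 alone *Pcdhac1* (0.11) and both *Pcdhgc5* probes (0.02 and 0.19) were positive, while *Pcdhac2* and *Pcdhgc3* were negative on both chips. *Pcdhac2*, known for its role in the spacing of serotonergic axons, had a signal from 7.85 to 8.26 (median 7.95) in exposed mice and from 8.04 to 8.29 (median 8.12) in control mice. Ethanol-exposed mice were below the median of the controls in 5 of 6 cases, and replicate 3 was the exception. The log2 fold change was −0.16 ± 0.082 (standard error), with a limma unadjusted p = 0.0673, an adjusted p = 0.759 and an exact permutation p = 0.0498. *Pcdhac1* ran from 5.55 to 6.13 (median 5.74) and from 5.33 to 6.14 (median 5.88), with a log2 fold change of −0.02 (95% interval −0.33 to 0.28).

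*Pcdhgc3*, which takes part in dendrite branching of cortical neurons, had the most negative value of the family. At ILMN_2890002 the signal ran from 5.29 to 6.30 (median 5.71) in exposed mice and from 5.59 to 6.43 (median 6.05) in control mice. Here 5 of 6 ethanol-exposed mice were below the control median, with replicate 2 above it. The log2 fold change was −0.33 ± 0.17 (standard error), with a limma unadjusted p = 0.0726, an adjusted p = 0.759 and an exact permutation p = 0.121. Its second probe, ILMN_2585283, was detected on no array.

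*Pcdhgc5*, which binds GABA-A receptors at synapses, was measured by a bright and a dim probe. At the bright one, ILMN_1216284, the signal ran from 8.51 to 8.94 (median 8.63) in exposed mice and from 8.53 to 8.88 (median 8.62) in control mice. The log2 fold change was 0.0065 (95% interval −0.18 to 0.19), and 3 of 6 ethanol-exposed mice lay on each side of the control median. At the dim one, ILMN_2672878, the values ran from 5.02 to 5.98 (median 5.45) and from 5.08 to 6.10 (median 5.64), a log2 fold change of −0.17 (95% interval −0.57 to 0.22). *Pcdhgc4*, needed for the survival of cortical interneurons, was detected on 1 array only, that of control replicate 1, and its signal before normalization ran from 87.3 to 153.5.

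Of the variable γ genes, *Pcdhgb4* and *Pcdhga4* were the brightest. *Pcdhgb4* ran from 8.61 to 9.01 (median 8.74) in exposed mice and from 8.64 to 9.04 (median 8.81) in control mice, a log2 fold change of −0.05 (95% interval −0.25 to 0.16). *Pcdhga4* ran from 5.57 to 6.35 (median 5.94) and from 5.86 to 6.12 (median 5.93), a log2 fold change of −0.03 (95% interval −0.30 to 0.23). Its SD was 2.48 times larger in ethanol-exposed mice, whose values enclosed those of all control mice. The other tested variable γ probes ran from −0.21 at *Pcdhga7* to 0.24 at *Pcdhgb6*.

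**Figure D3:**
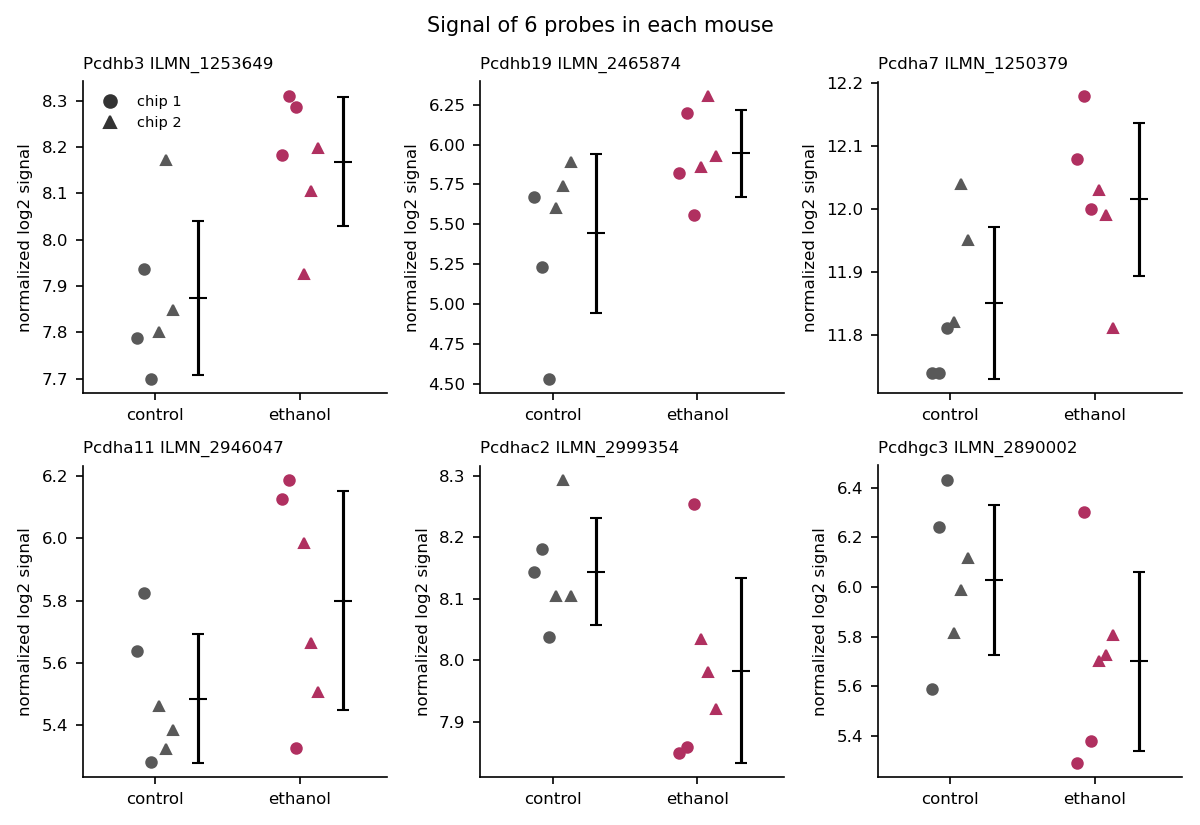
Normalized log2 signal (y axis, scale set for each panel) of 6 probes in each control and ethanol-exposed mouse (x axis), with the mean and SD of each group of 6 at the right of its points; circles are chip 1 and triangles chip 2. *Pcdhb3* and *Pcdhb19* sit higher in ethanol-exposed mice and *Pcdhac2* and *Pcdhgc3* lower, with overlap between the groups in every panel.

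The same differences can be read by mouse. For each mouse the deviation of a probe from its 12-mouse mean was taken, and the median over the tested probes of a cluster. Over the β probes this was 0.03 to 0.15 (median 0.07) in exposed mice and −0.20 to 0.01 (median −0.07) in control mice. Every ethanol-exposed mouse thus lay above every control mouse in the β cluster, although none of its 11 probes separated the groups alone. The gap was small, as the lowest ethanol-exposed mouse was at 0.03 and the highest control mouse at 0.01. How often medians over other sets of probes separate the groups was not tested. With the arrays scaled on their medians 3 of 6 ethanol-exposed mice lay above all controls, and with the 7 β probes detected on all arrays 5 of 6 did.

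Over the α probes the median deviation was −0.19 to 0.18 (median 0.07) in exposed mice and −0.31 to 0.15 (median −0.0009) in control mice. The lowest values were those of control replicate 3 and ethanol replicate 6, and the groups overlapped. Over the γ probes it was −0.16 to 0.21 (median −0.05) and −0.06 to 0.15 (median −0.01), again with overlap. Ethanol replicate 3 had the highest γ value. These medians describe the probes chosen and carry no test.

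**Figure D4:**
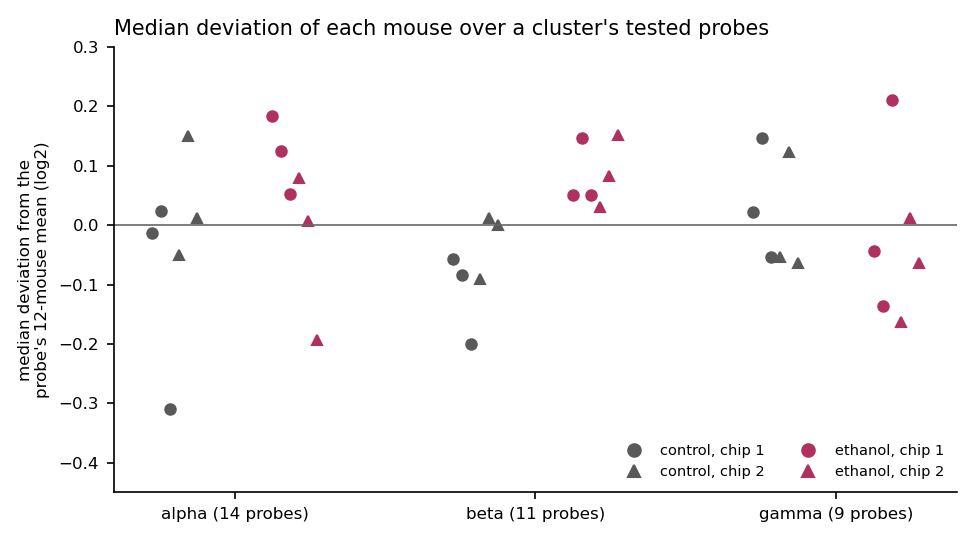
Median deviation of each mouse from the 12-mouse mean (y axis, log2) over the 14 α, 11 β and 9 γ tested probes (x axis), with control mice in grey, ethanol-exposed mice in red, circles for chip 1 and triangles for chip 2. The 6 ethanol-exposed mice lie from 0.03 to 0.15 in the β cluster and the 6 control mice from −0.20 to 0.01, whereas the groups overlap in the α and γ clusters.

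The α and β medians were larger on the first BeadChip than on the second, while the γ median was near 0 on both. On chip 1, with 3 mice against 3, the median log2 fold change was 0.19 over the β probes, 0.23 over the α probes and 0.02 over the γ probes, and 27 of the 34 probes were positive. On chip 2 the medians were 0.02, −0.02 and −0.04, and 18 of 34 were positive. Over all probes tested 52.6% were positive on chip 1 and 50.2% on chip 2. Both chips gave the same sign at 21 of the 34 probes, and the difference between chips was not tested.

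*Pcdhb3* had a log2 fold change of 0.45 on chip 1 (limma unadjusted p = 0.00458) and 0.14 on chip 2 (unadjusted p = 0.334). For *Pcdhb19* the values were 0.72 (unadjusted p = 0.0423) and 0.29 (unadjusted p = 0.0750). With the chip as a block the 2 probes kept an unadjusted p under 0.05 (0.00796 and 0.0153). The bright *Pcdha7* probe ILMN_1250379 had 0.32 on chip 1 and 0.0047 on chip 2. *Pcdha11* had nearly the same value on both chips, 0.30 and 0.33. The dim *Pcdhgc5* probe ILMN_2672878 had opposite signs, 0.19 on chip 1 and −0.54 on chip 2. No member probe differed between the chips themselves at an adjusted p under 0.05, which 0.446% of all probes did.

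**Figure D5:**
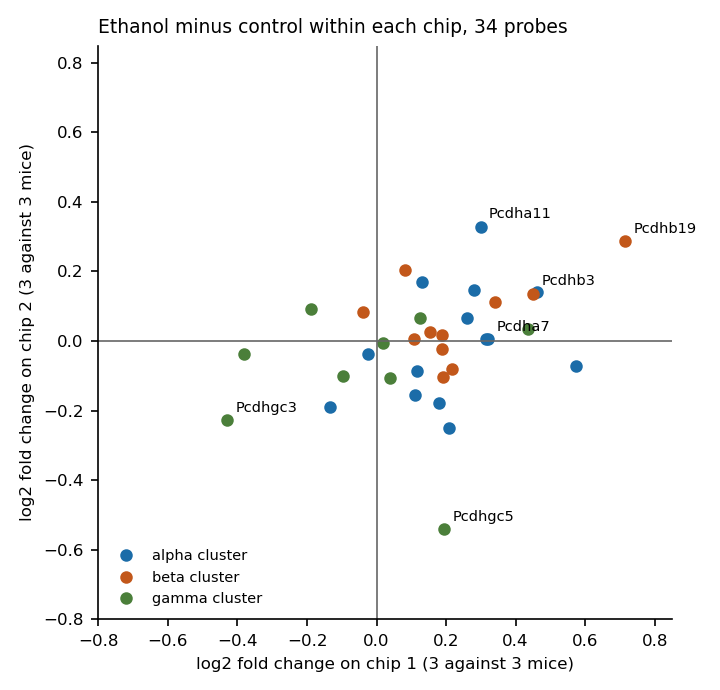
Log2 fold change, ethanol-exposed minus control, on chip 1 (x axis) and chip 2 (y axis) for the 34 tested probes, coloured by cluster. On chip 1 27 points are positive and on chip 2 18 are; *Pcdhb19*, *Pcdhb3* and *Pcdha11* are positive on both, *Pcdha7* marks ILMN_1250379 and *Pcdhgc5* marks ILMN_2672878.

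The spread between mice was also compared. Whole-tissue arrays do not measure how isoform choice varies between single cells. The SD over 6 mice was larger in ethanol-exposed mice at 16 of the 34 probes (47.1%), against 47.9% of all probes. By cluster this was 6 of 14 α probes, 3 of 11 β probes and 7 of 9 γ probes. The median SD ratio, ethanol-exposed over control, was 0.989 over the α probes, 0.843 over the β probes and 1.22 over the γ probes, beside 0.975 over all probes tested. Among single genes the ratio ran from 0.337 at *Pcdhb8* to 2.48 at *Pcdhga4*.

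Genes that act with the clustered protocadherins were described from lists, with the brightest tested probe of each gene. Of the non-clustered protocadherins, adhesion genes that lie outside the clusters, 8 of 12 were tested and 6 had a positive sign, 5 with the arrays scaled on their medians. *Pcdh9* passed an unadjusted p of 0.05, with a log2 fold change of 0.24 (limma unadjusted p = 0.0160, adjusted p = 0.720). The next by p-value were *Pcdh10* at 0.20 and *Pcdh1* at −0.26. The median over this list was 0.09.

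Of the genes of promoter choice and chromatin, 16 of 24 were tested and the median was 0.10. A positive sign was found at 14 of the 16, against 51.6% of all probes, and at 11 with median scaling, against 36.6%. *Smc3*, a core subunit of cohesin, had a log2 fold change of 0.28 (unadjusted p = 0.0439) and *Lrif1*, a partner of the silencing protein HP1, 0.23 (unadjusted p = 0.0382), with an adjusted p of 0.759 for both in limma. The cohesin subunits *Stag1*, *Smc1a* and *Stag2* stood at 0.15, 0.13 and 0.21 and the cohesin loader *Mau2* at 0.11, none under an unadjusted p of 0.05. No gene of this list passed that threshold with median scaling or without ethanol replicate 1, ethanol replicate 4 or control replicate 1, and 4 did without control replicate 5. Leaving out each of 5 other mice (ethanol replicates 2 and 6, control replicates 2, 3 and 6) left 1. That gene was *Smc3* without ethanol replicate 2 or control replicate 6, and *Lrif1* without control replicate 3. Without ethanol replicate 6 it was *Pds5b* and without control replicate 2 *Smc1a*, which were not called in the fit of all mice.

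Of the signalling and cleavage partners 18 of 22 were tested and 12 had a positive sign, 10 with median scaling, with a median of 0.05. *Ret*, a receptor tyrosine kinase that binds these protocadherins, had a log2 fold change of 0.42 (limma unadjusted p = 0.00545, adjusted p = 0.718), with 0.68 on chip 1 and 0.15 on chip 2. Its probe was dim, with a mean of 5.83 in exposed and 5.42 in control mice, and was detected on 10 arrays. On chip 2 alone no gene of this list was under an unadjusted p of 0.05. *Marcks*, an actin regulator, had 0.21 and *Abi2*, a subunit of the WAVE complex that the α constant region recruits, 0.20 (unadjusted p = 0.0400 and 0.0310). *Wasf1*, another WAVE subunit, had 0.13 (unadjusted p = 0.0769). *Ret* alone of this list was under an unadjusted p of 0.05 without ethanol replicate 5 or control replicate 1, 2 or 4, and with median scaling. Of the 42 genes tested in the 3 lists, 6 were higher and 0 lower at an unadjusted p under 0.05, against 3.36% and 3.08% of all probes. With median scaling *Ret* was the only one of them called. Without the 3 mice of highest choroid plexus signal, described below, *Ret* and *Lrif1* were higher and *Pcdh1* lower. The lists were written with earlier results of these data known and use the brightest probe of each gene, unlike the shares over all probes.

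Markers of cell types also differed in sign between the groups, and their part in these values was not tested. Of 17 hippocampal neuron markers 14 were tested, 11 were positive and the median was 0.11, with a summed linear signal from 90900 to 104000 in exposed mice and from 86700 to 100000 in controls. The brighter of the 2 probes of *Snap25* was detected on no array, and *Slc17a7* and *Prox1* were detected on all 12. Of 10 astrocyte markers 9 were negative (median −0.16), with sums from 53800 to 60400 and from 57200 to 63300. Among the others, 6 of 9 oligodendrocyte, 6 of 8 microglia and 2 of 8 endothelial markers were negative. In limma 2 astrocyte markers, *Gfap* and *Aldoc*, were lower at an unadjusted p under 0.05, against 3.08% of all probes. So were 1 oligodendrocyte marker, *Mobp*, and 1 microglia marker, *C1qc*. From the neuron list 1 marker, *Syt1*, was higher, against 3.36% of all probes. No endothelial or choroid plexus marker was called. All 5 tested choroid plexus markers were negative, with a summed linear signal from 509 to 27100 in exposed mice and from 756 to 44300 in control mice, but 4 of the 5 were positive on chip 2, where their median was 0.20 against −3.21 on chip 1. At an unadjusted p under 0.05, 5 of 6 ependymal markers were lower, against 3.08% of all probes, with a median of −1.61 on chip 1 and −0.11 on chip 2. Of 6 thalamus and habenula markers 2 were higher at that threshold, *Tac2* and *Slc17a6*, against 3.36% of all probes. The list was written with earlier results of these data known, so these calls are a description only. *Tcf7l2*, *Rora*, *Prkcd* and *Calb2* lay between −0.02 and 0.08. Fewer cells of a type and less RNA per cell cannot be told apart in whole tissue.

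The choroid plexus signal was high in control replicates 1 and 3 and ethanol replicate 5. Without these 3 mice, an alternative chosen after the data were seen, *Pcdhb3* had a log2 fold change of 0.24 (limma unadjusted p = 0.0510) and *Pcdhb19* 0.26 (unadjusted p = 0.117). In that comparison 0 member probes passed an unadjusted p of 0.05, the β median was 0.09, and 8 of 11 β probes were positive.

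The arrays of the 2 groups were alike in quality, while those of the 2 chips differed. Between 18729 and 20250 probes were detected in ethanol-exposed mice and between 18644 and 20268 in control mice, and signals of any 2 arrays correlated at 0.989 to 0.996 across probes. Fewer probes were detected on the arrays of chip 1 (18644 to 19113) than on those of chip 2 (19492 to 20268). The median signal of an array before normalization was higher on chip 1 (111.3 to 127.5) than on chip 2 (94.7 to 102.7). Precision is limited by how many arrays there were.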

How the data were processed

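The authors hybridised hippocampal RNA to MouseWG-6 v2.0 BeadChips and summarised the beads in GenomeStudio 1.9.0. The main deposited table gives linear intensity values that had been neither normalized nor, as far as found, background-subtracted. Beside each stands a deposited detection p-value. The authors' second table lay within 0.956% of the quantile-normalized intensity and served as an alternative. The test behind the authors' own group comparison is not named in the sources used here.

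Intensities were corrected with limma 3.58.1 in R 4.3.3 by the normexp model (offset 16), for which detection p-values gave the negative control distribution, then quantile normalized and log2-transformed. Probes with a detection p under 0.05 on 6 or more arrays were fitted on group alone, moderated by empirical Bayes, and adjusted by Benjamini-Hochberg over all 19288 probes. The means of named probes were also compared by a two-sided exact permutation test. The procedure was tested on simulated data.

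Gene symbols came from the platform annotation, updated by gene identifier, and gene order from the start coordinates in a mouse RefSeq table. The members, lists and rules were chosen with earlier results of these data known. Member probes were described in full if they had an unadjusted p under 0.05, were among the 3 brightest of a cluster, belonged to a C-type gene or were among the 3 largest fold changes. From the lists came genes with an unadjusted p under 0.05 and up to 4 others with the smallest p. The alternatives were other background corrections and scalings, other limits on detection, the chip and the replicate number as blocks, each chip alone, no moderation and leaving out each mouse.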

Additional observations from a re-analysis of the deposited data

Results flagged for a closer look

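Of the 68 groups of 6 values formed by the 34 tested probes, 1 held a mouse far from the rest, where chance alone gives about 1 in 20 groups (3.4 here). At *Pcdhb8* ILMN_2648921 the signal of ethanol replicate 6 was 5.51, below the next ethanol-exposed mouse at 5.78. That gap was 0.662 of the group's whole range.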

How the results depend on the processing

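The count of member probes past an adjusted p of 0.05 was 0 under every alternative run. The count at an unadjusted p under 0.05, 2 in the reported comparison, was 6 with no filter on dim probes, 1 with detection on all 12 arrays, 5 on chip 1 alone, 0 with the added fold limit of 1.5, and 0 without the 3 mice of highest choroid plexus signal, which was chosen after seeing the data. Leaving out one mouse gave 1 to 6 probes, while the counts over all probes ran from 536 to 848 higher and from 519 to 789 lower. Shares over all probes under the other alternatives are not given here, so these counts cannot be read as results about the members.

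Replicate numbers are shared by the groups, but no label says that they pair mice, and the deviations of same-numbered mice correlated at only −0.018 to 0.21. With the replicate block 5 member probes had an unadjusted p under 0.05, among them *Pcdha11* (unadjusted p = 0.00560) and *Pcdhgc3* (unadjusted p = 0.0335). The share of all probes called with this block is not given here, so that count cannot be read as a result about the members.

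The median log2 fold change over all members was 0.184 on chip 1 alone and that over the β probes 0.189, while the α median was −0.0167 on chip 2 alone. Leaving out one mouse gave 0.0416 to 0.0933 for all members, 0.0949 to 0.19 for α, 0.0834 to 0.125 for β and −0.0939 to −0.0282 for γ. The count of probes with a larger SD in ethanol-exposed mice was 34 of 67 with no filter and 10 of 19 with detection on all arrays, and 15 to 21 without one mouse.

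*Pcdhb3* kept an unadjusted p under 0.05 in all 12 comparisons without one mouse and *Pcdhb19* in 9 of them. With median scaling *Pcdhb3* was at 0.235 (unadjusted p = 0.0564), and without moderation *Pcdhb19* had an unadjusted p = 0.0564. Signs of named probes turned as follows. *Pcdhgc5* ILMN_1216284 was −0.0436 with median scaling and −0.0061 on chip 2, and −0.0486 to 0.0508 without one mouse. On chip 1 *Pcdhac1* was 0.11, *Pcdhga4* 0.0377 and *Pcdhgc5* ILMN_2672878 0.194 (−0.541 on chip 2), and on chip 2 *Pcdhgb4* was 0.0934. Without one mouse *Pcdhac1* ran from −0.127 to 0.0362, *Pcdhga4* from −0.118 to 0.0388 and *Pcdha7* ILMN_1215440 from −0.0767 to 0.0129. The cause of these changes was not tested. Signal near background limits the dim probes, of which 21 lay in the dimmest 25% of tested probes.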
